A study of Ovis aries with 6 samples.

Results

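The 10 genes described here encode enzymes that make proline (PYCR1, ALDH18A1), serine (PHGDH, PSAT1) and asparagine (ASNS), the transcription factors ATF4 and DDIT3, and 3 further stress-induced genes that ATF4 is known to switch on (CHAC1, TRIB3, SESN2). They were found by gene symbol in a table of read counts for 33609 genes, 1 row for each symbol, and all 10 had enough counts to be among the 18019 genes tested. The set was chosen by role and with earlier results of these counts known, and the measured value it was selected on is the higher PYCR1 level of THX than of Long pools. PYCR1 is therefore described by its levels and the size of its differences, and its calls are only counted beside the share of all genes called.

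The counts came from polyA RNA of the choroid plexus, the tissue that secretes cerebrospinal fluid, taken from ewes in 3 groups. THX ewes had been thyroidectomised and were kept in long days, Long ewes were controls in long days, and Short ewes were controls in short days. Each group was sequenced as 2 pools of RNA from 3 to 4 ewes, drawn from 8 ewes a group and 7 in the THX group, per the series' design text. A pool is the replicate throughout. The spread of single ewes was not measured, and it enters the p-values only through the differences between pools. Levels are in CPM, counts set against the scaled size of each library, and errors are the SD of the 2 pools of a group unless stated otherwise.

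Proline is made in mitochondria from glutamate in consecutive steps. The synthase encoded by ALDH18A1 makes pyrroline-5-carboxylate, which the reductase PYCR1 turns into proline. Serine is made from a glycolytic intermediate by PHGDH, then PSAT1, then PSPH. When amino acids run short or unfolded protein accumulates, kinases phosphorylate the initiation factor eIF2alpha, which lowers translation in general but raises that of ATF4. ATF4 in turn is known from human and mouse cells to activate ASNS, PHGDH, PSAT1, PYCR1, CHAC1, TRIB3, DDIT3 and SESN2. Because ATF4 is controlled largely at translation and at phosphorylation steps upstream of it, its mRNA level does not measure its activity.

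Pools held between 48282883 and 82100653 counts. The thyroid hormone target HR, a check of the thyroidectomy label, was at 3.36 and 2.76 CPM in THX pools and 23.7 and 23.4 CPM in Long pools (log2 difference −2.94, adjusted p = 0.000835). KLF9, a transcription factor that thyroid hormone induces, was at 36.1 and 34.1 CPM in THX pools and 93.2 and 89.9 CPM in Long pools (log2 difference −1.38, adjusted p = 0.0053). KLF9 missed the threshold when Long pool 2 was left out (adjusted p = 0.0882). On a principal component analysis THX pool 2 and Short pool 1 lay at opposite ends of the first component (−42.7 and 38.4, 30.9% of the variance), and THX pool 1 lay apart on the second (47.8, 26.4%). Epithelial markers of the choroid plexus (12 of 13 found, all tested) summed to 122500 and 144500 CPM in THX pools, 111500 and 113100 CPM in Long pools and 90730 and 96800 CPM in Short pools, nearly all of it transthyretin (TTR). Other epithelial markers ran the other way, such as the co-receptor KL, at 715 and 608 CPM in THX pools, 893 and 978 CPM in Long pools and 1278 and 1098 CPM in Short pools. Of the 12, 7 lay above 0 between THX and Long pools and 6 between THX and Short pools. HTR2C among them and LUM among the fibroblast markers fell between THX and Long pools, and no other marker of any list passed there. Between THX and Short pools 1 epithelial marker rose and 2 fell, and 1 fibroblast marker fell. Summed fibroblast markers (9 of 10 found) were at 589 and 824, 978 and 895, and 815 and 1074 CPM in THX, Long and Short pools. Pituitary markers (7 of 8 found) ranged from 34.3 CPM in Long pool 1 to 702 CPM in THX pool 1, and blood was uneven too, with haemoglobin HBB at 53.5 CPM in Long pool 2 and at most 4.59 CPM elsewhere. The summed levels of the other lists ran from 295 to 340.5 CPM for neurons, 75.4 to 98.6 for oligodendrocytes and 723.5 to 910 for endothelium. They ran from 861 to 1370 CPM for pericytes and smooth muscle, 178 to 239 for macrophages and 21.1 to 30.9 for lymphocytes. Nearly all of the neuronal sum was SNAP25, at 282.5 to 324 CPM. RBFOX3 ran from 5.58 to 14.4 CPM, and the other neuronal markers were at or below 1.55 CPM in every pool. In such bulk samples fewer cells of a type and less RNA per cell cannot be told apart, and the part of these cell types in the results below was not tested.

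**Figure D1:**
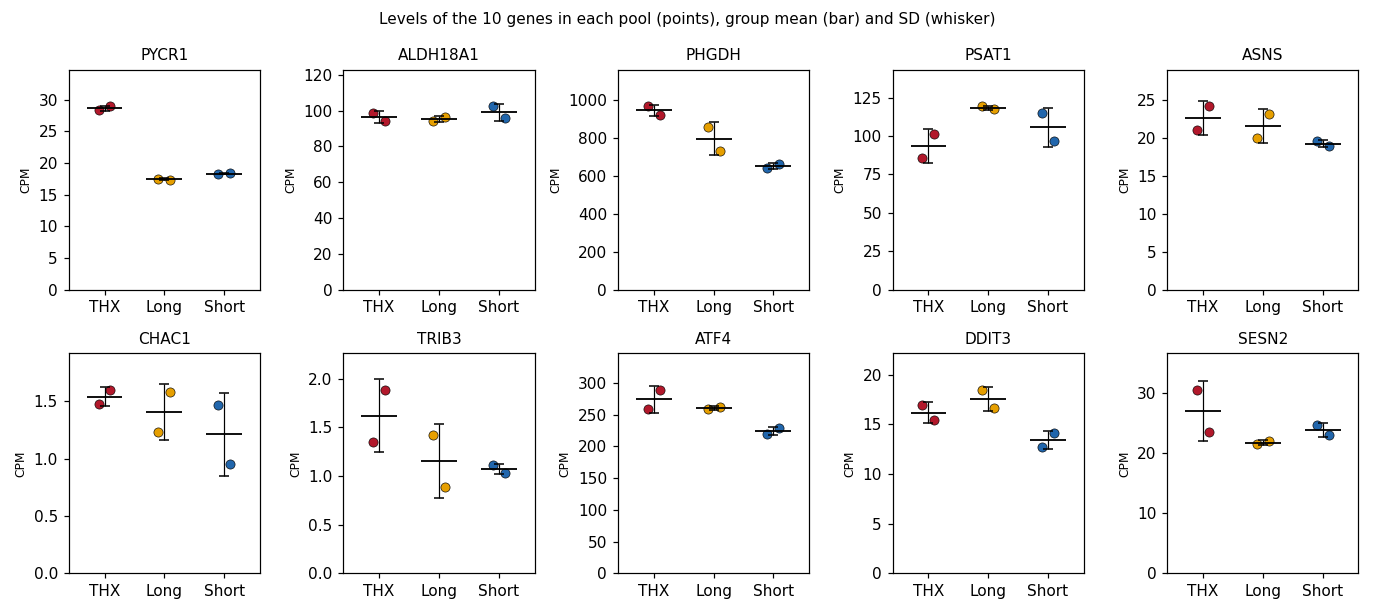
Level of each of the 10 genes in CPM (y axis, from 0) in the 2 THX, 2 Long and 2 Short pools (points), with the group mean (bar) and SD (whisker). PYCR1 stands out, with 28.4 and 29.0 CPM in THX pools against at most 18.4 CPM in the other 4 pools.

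PYCR1 was higher in THX pools than in both groups with a thyroid. It was at 28.4 and 29.0 CPM in THX pools, 17.5 and 17.4 CPM in Long pools, and 18.3 and 18.4 CPM in Short pools. Pools of the same group were within 1.02-fold of each other, and no THX pool overlapped a Long or Short pool. The mean of 28.7 ± 0.441 CPM in THX pools was 1.64-fold that of Long pools, 17.4 ± 0.131 CPM (n = 2 each, log2 difference 0.72, SE 0.087), and 1.56-fold that of Short pools, 18.3 ± 0.101 CPM (n = 2, log2 difference 0.65, SE 0.086). Long and Short pools were close, at a log2 difference of −0.07 (SE 0.087), less than its standard error. Both differences of THX pools use the same 2 THX pools, so the second is no repeat of the first. Epithelial markers went in both directions between THX and Long pools (7 of 12 above 0), and their part in the PYCR1 difference was not tested.

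ALDH18A1, which supplies the substrate of PYCR1, was nearly level. It was at 98.6 and 93.9 CPM in THX pools, 94.2 and 96.6 CPM in Long pools and 102 and 95.7 CPM in Short pools. The 3 groups overlapped, and the highest of the 6 pools was 1.09-fold the lowest. The log2 difference was 0.01 between THX and Long pools (95% interval −0.16 to 0.19, adjusted p = 0.991), with a sign that turned with total-count scaling (−0.034). It was −0.04 between THX and Short pools (interval −0.22 to 0.14, adjusted p = 0.765). Within a pool the ratio of ALDH18A1 to PYCR1 counts does not depend on library scaling. That ratio was 3.48 and 3.24 in THX pools, 5.37 and 5.57 in Long pools and 5.61 and 5.20 in Short pools, so the THX pools lay below the other 4. With ALDH18A1 nearly level, the ratio restates the PYCR1 difference that the set was selected on and is no second observation. The ratio was computed after the levels had been seen and is given without a test.

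Among the related genes of proline and glutamate handling, PRODH rose and GLUD1 fell in THX relative to Short pools. Of the 12 genes of this list outside the set of 10, 10 were tested. None passed between THX and Long pools by edgeR, where 0.283% of all tested genes did. At an unadjusted p below 0.05 there were 2, against 9.08% of all tested genes. Between THX and Short pools 1 was called higher and 1 lower, where 0.916% of all tested genes passed. PRODH, the mitochondrial enzyme that starts proline breakdown, rose relative to Short pools. It was at 1121 and 1265 CPM in THX pools, 867 and 897 CPM in Long pools and 781 and 757 CPM in Short pools. On the log2 scale it differed by 0.63 between THX and Short pools (SE 0.086, adjusted p = 0.033) and 0.44 between THX and Long pools (SE 0.085, adjusted p = 0.162). GLUD1, the mitochondrial glutamate dehydrogenase, fell relative to Short pools, with 58.1 and 56.5 CPM in THX pools, 74.1 and 73.7 CPM in Long pools and 89.5 and 83.4 CPM in Short pools. Its log2 difference was −0.59 between THX and Short pools (SE 0.075, adjusted p = 0.0291), −0.37 between THX and Long pools (adjusted p = 0.171) and −0.23 between Long and Short pools (adjusted p = 0.342). For PRODH and GLUD1 the 3 groups followed each other without overlap, in opposite orders. Of the 6 fits that each left out 1 pool, the calls of PRODH and GLUD1 held only in the fit without THX pool 1 (adjusted p = 0.0306 and 0.0363). They were lost without THX pool 2, either Long pool or either Short pool, where adjusted p ran to 0.182 for PRODH and 0.165 for GLUD1 at log2 differences of 0.55 to 0.66 and −0.64 to −0.54.

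PYCR3, a cytosolic paralog of PYCR1, did not pass. It was at 25.3 and 34.0 CPM in THX pools, 34.3 and 30.4 CPM in Long pools and 24.4 and 27.7 CPM in Short pools (THX over Long −0.12 on the log2 scale, SE 0.154, adjusted p = 0.926). THX and Long pools overlapped, and whether PYCR3 and PYCR1 differed in their response was not tested. PYCR3 was singled out after its values had been seen. ARG2, the mitochondrial arginase, had the second lowest p of the list between Long and Short pools (37.8 and 35.4 CPM against 31.3 and 27.5 CPM, log2 difference 0.32, adjusted p = 0.355). SLC6A20, a transporter that brings proline into cells, fell to 38.5 and 52.4 CPM in THX pools, against 127 and 134 CPM in Long pools and 136 and 126 CPM in Short pools. That fall was −1.53 on the log2 scale against either group (adjusted p = 0.0179 against Long and 0.0153 against Short). Against Long pools the call was lost without Long pool 1 or Long pool 2 (adjusted p = 0.0906 and 0.178). Against Short pools it was lost without Long pool 1, Long pool 2 or Short pool 1 (adjusted p = 0.0516, 0.0535 and 0.0843).

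**Figure D2:**
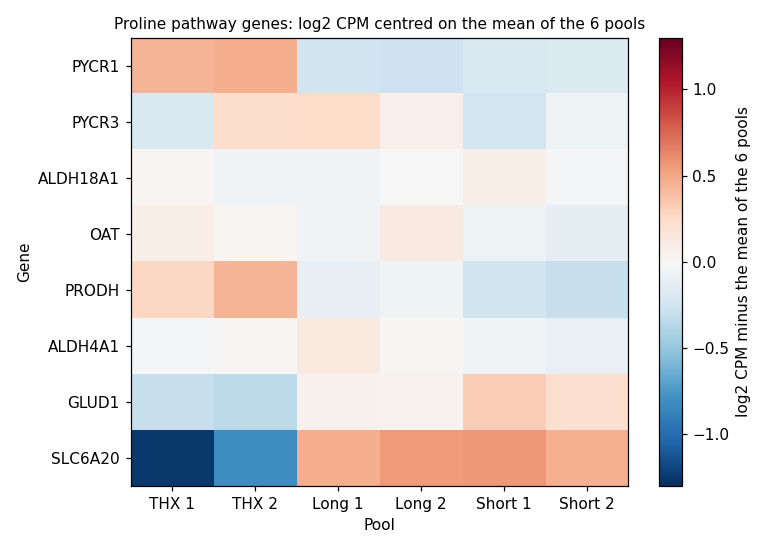
Colour gives the log2 CPM of 8 genes of proline synthesis, breakdown and uptake (rows) in each of the 6 pools (columns), minus the mean of that gene over the pools. PYCR1 and PRODH are above their means in both THX pools, SLC6A20 and GLUD1 are below theirs, and ALDH18A1 and ALDH4A1 stay near 0.

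The serine enzymes PHGDH and PSAT1 differed in opposite directions between THX and Long pools, and neither passed. PHGDH, which commits the glycolytic intermediate to serine, was at 964 and 921 CPM in THX pools, 855 and 732 CPM in Long pools and 639 and 661 CPM in Short pools. The groups did not overlap, and THX pools were highest and Short pools lowest. The means were 943 ± 30.8 CPM in THX pools, 793 ± 87.0 CPM in Long pools and 650.0 ± 15.3 CPM in Short pools (n = 2 each). The log2 difference was 0.25 between THX and Long pools (SE 0.094, interval 0.026 to 0.47, adjusted p = 0.486). It was 0.54 between THX and Short pools (SE 0.094, interval 0.31 to 0.76, adjusted p = 0.0573) and 0.29 between Long and Short pools (SE 0.094, adjusted p = 0.342). The difference between THX and Short pools passed by DESeq2 (adjusted p = 1.15e-05), without a filter on low counts (0.0119), with the pool number as a replicate block (0.0451) and without THX pool 1 (0.0488), and its adjusted p in the other fits that left out a pool ran to 0.269.

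PHGDH is also abundant in astrocytes and other glia, so the markers of such cells are given beside it. Summed astrocyte markers (10 of 10 found, 9 tested) were at 455 and 403.5 CPM in THX pools, 451 and 440.4 CPM in Long pools and 480.5 and 459 CPM in Short pools, and AQP4, the astrocyte water channel, was at or below 0.179 CPM in every pool. Of the 9 tested, 6 lay above 0 between THX and Long pools and 7 between THX and Short pools, none of them called. S100B was at 77.8 and 66.9 CPM in THX pools, 67.5 and 56.0 CPM in Long pools and 49.9 and 61.5 CPM in Short pools, whereas GJA1 was at 144.5 and 143 CPM in THX pools, 168 and 173 CPM in Long pools and 203 and 184 CPM in Short pools. Summed ependymal markers (8 of 8 found, 7 tested) were at 738 and 807 CPM in THX pools, 706 and 605.5 CPM in Long pools and 612 and 604 CPM in Short pools. The THX pools were the highest for the ependymal sum and for PHGDH. FOXJ1 made up most of that sum, at 432.5 and 496.5 CPM in THX pools. It was at 393 and 323 CPM in Long pools and 331 CPM in both Short pools. Of the 7 tested ependymal markers, 6 lay above 0 in each comparison with THX pools, none called. HYDIN, PIFO, DYNLRB2 and RSPH1 overlapped between THX and Long pools, whereas FOXJ1, CCDC153 and CFAP126 were higher in THX pools. TTR ran in the order THX, Long, Short as PHGDH did, and KL, HTR2C and KCNJ13 in the reverse order. Their part in the PHGDH difference was not tested.

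PSAT1, the aminotransferase of the next step, was lowest in THX pool 1. It was at 85.6 and 101 CPM in THX pools, 119 and 118 CPM in Long pools and 115 and 96.8 CPM in Short pools. THX pools lay below Long pools but overlapped Short pools. The log2 difference was −0.34 between THX and Long pools (SE 0.114, interval −0.61 to −0.074, adjusted p = 0.415) and −0.18 between THX and Short pools (SE 0.114, adjusted p = 0.371). The ratio of PHGDH to PSAT1 counts was 11.3 and 9.11 in THX pools, 7.16 and 6.22 in Long pools and 5.57 and 6.83 in Short pools. THX pools had the highest ratios, whereas Long and Short pools overlapped. This ratio too was chosen after the levels were seen and has no test.

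**Figure D3:**
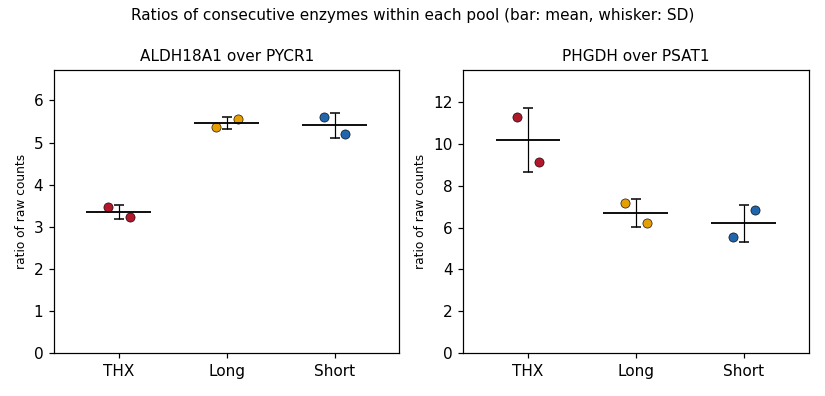
Ratio of raw counts of consecutive enzymes within each pool (y axis, from 0; points are pools, bars group means, whiskers SD), for ALDH18A1 over PYCR1 and PHGDH over PSAT1. THX pools are lowest for the first pair (3.48 and 3.24) and highest for the second (11.3 and 9.11). The first ratio restates the PYCR1 difference that the set was selected on, and neither ratio was tested.

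None of the 20 tested genes of serine, glycine and folate-linked metabolism outside the set passed in any comparison by edgeR. At an unadjusted p below 0.05 there were 3 between THX and Long pools, 4 between THX and Short pools and 0 between Long and Short pools. These counts compare with 9.08%, 22.6% and 13.8% of all tested genes. GCSH, the carrier protein of the mitochondrial glycine cleavage system, was at 16.9 and 17.3 CPM in THX pools, 13.1 and 13.3 CPM in Long pools and 11.4 and 12.3 CPM in Short pools (log2 difference of THX over Long 0.37, adjusted p = 0.318, and of THX over Short 0.53, adjusted p = 0.073). GLDC, the decarboxylase of that system, was at 16.3 and 11.8 CPM in THX pools, 7.81 and 8.12 CPM in Long pools and 11.0 and 8.29 CPM in Short pools (log2 difference of THX over Long 0.82, adjusted p = 0.25). AMT, the aminomethyltransferase of the system, was at 60.2 and 61.2 CPM in Long pools and 48.9 and 56.3 CPM in Short pools (a log2 difference of 0.21, adjusted p = 0.364). PSPH, the last enzyme of serine synthesis, was at 18.1 and 19.2 CPM in THX pools, 13.9 and 12.8 CPM in Long pools and 13.3 and 9.48 CPM in Short pools. The log2 difference of PSPH was 0.48 between THX and Long pools (adjusted p = 0.441) and 0.71 between THX and Short pools (adjusted p = 0.0964), and it was named after its values were seen. By DESeq2 GLDC passed between THX and Long pools (adjusted p = 0.0122), and GCSH and PSPH between THX and Short pools (0.00136 and 0.00354), where both also passed without a filter on low counts (0.0448 and 0.0333). Of 15 alternatives, GLDC thus passed in 1 between THX and Long pools, and GCSH and PSPH in 2 each between THX and Short pools.

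The genes most used as readouts of ATF4 activity did not pass in any comparison. ASNS, the asparagine synthetase, was at 21.1 and 24.2 CPM in THX pools, 20.1 and 23.2 CPM in Long pools and 19.6 and 18.9 CPM in Short pools. THX and Long pools overlapped, and Short pools were the lowest. The log2 difference was 0.07 between THX and Long pools (SE 0.117, interval −0.21 to 0.34, adjusted p = 0.967) and turned negative without THX pool 2 or Long pool 1 (−0.035 and −0.036). Between THX and Short pools it was 0.23 (SE 0.117, adjusted p = 0.28).

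CHAC1, which degrades glutathione and is among the most inducible targets of ATF4 in mouse and human cells, had low counts. It was at 1.48 and 1.60 CPM in THX pools, 1.23 and 1.58 CPM in Long pools and 1.47 and 0.956 CPM in Short pools, from 48 to 124 counts per pool. With so few counts, the exact 95% Poisson interval of Long pool 1 alone ran from 0.958 to 1.56 CPM, and such intervals cover counting error only. The log2 difference of THX over Long was 0.13 (interval −0.58 to 0.84, adjusted p = 0.978). TRIB3, a pseudokinase that restrains ATF4 and Akt, was at 1.36 and 1.88 CPM in THX pools, 1.43 and 0.883 CPM in Long pools and 1.11 and 1.04 CPM in Short pools. THX and Long pools overlapped, at a log2 difference of 0.49 (interval −0.28 to 1.26, adjusted p = 0.783), and THX pools lay above Short pools (log2 difference 0.59, adjusted p = 0.316). Differences between THX and Long pools inside these intervals could not be told from 0 for CHAC1 and TRIB3 with 2 pools a group.

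SESN2, a stress-induced sensor of leucine that restrains the growth kinase complex mTORC1, was high in 1 THX pool. It was at 30.5 and 23.5 CPM in THX pools, 21.4 and 22.0 CPM in Long pools and 24.6 and 22.9 CPM in Short pools. THX pool 1 stood above the other 5 pools, and THX pool 2 lay between the Short pools. The log2 difference was 0.31 between THX and Long pools (SE 0.134, adjusted p = 0.562) and 0.18 between THX and Short pools (SE 0.133, adjusted p = 0.445), the second turning to −0.015 without THX pool 1.

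ATF4 mRNA itself was lowest in Short pools, a difference that did not pass. It was at 259 and 289 CPM in THX pools, 258 and 262 CPM in Long pools and 219.5 and 229 CPM in Short pools. THX and Long pools overlapped (log2 difference 0.07, SE 0.079, interval −0.11 to 0.26, adjusted p = 0.903), and the Short pools were the lowest of all. The log2 difference was 0.29 between THX and Short pools (SE 0.079, adjusted p = 0.12) and 0.22 between Long and Short pools (SE 0.079, adjusted p = 0.342). The difference between THX and Short pools passed in 2 of 15 alternatives, 1 of them DESeq2 (adjusted p = 0.0174). Without THX pool 1 it was 0.37 on the log2 scale. TTR, the main epithelial product, had its lowest pools in the Short group too, whereas KL, HTR2C and KCNJ13 had their highest there. Of the 12 epithelial markers, 6 lay above 0 between Long and Short pools. The part of these markers was not tested. DDIT3, the factor CHOP that ATF4 induces under prolonged stress, was lowest in Short pools too. It was at 16.9 and 15.4 CPM in THX pools, 18.5 and 16.7 CPM in Long pools and 12.8 and 14.1 CPM in Short pools. Its log2 difference was −0.12 between THX and Long pools (SE 0.117, adjusted p = 0.887), 0.27 between THX and Short pools (SE 0.117, adjusted p = 0.229) and 0.39 between Long and Short pools (SE 0.117, interval 0.11 to 0.67, adjusted p = 0.342).

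**Figure D4:**
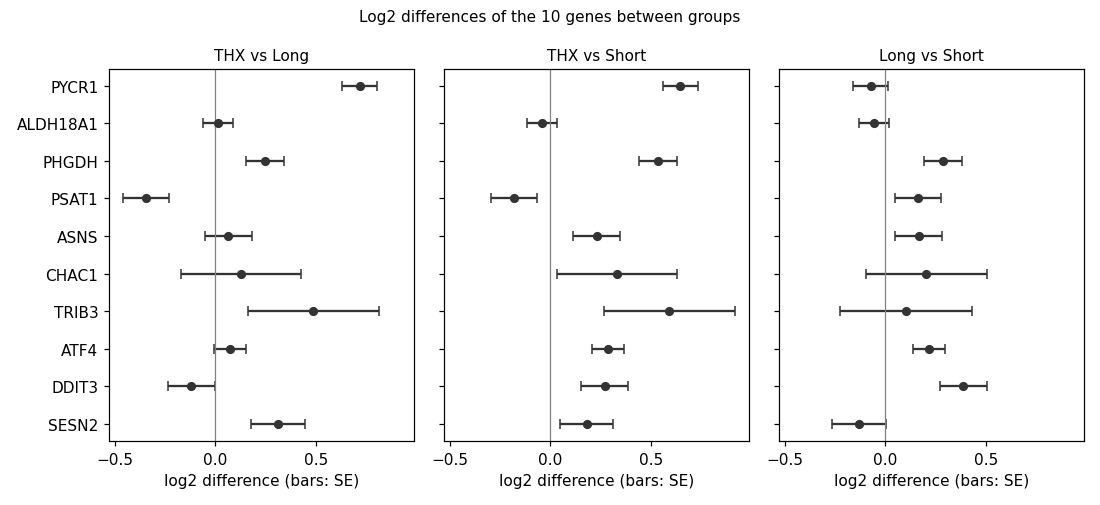
Log2 difference (x axis, bars are SE) of the 10 genes (rows) for THX over Long, THX over Short and Long over Short pools. PYCR1 lies at 0.72 and 0.65 for the comparisons with THX pools, PSAT1 is the lowest of the 10 for both, and DDIT3 (0.39) is the highest for Long over Short.

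Counted together, 1 of the 10 genes, PYCR1, passed between THX and Long pools, where 0.283% of all tested genes did by edgeR, and the same gene passed between THX and Short pools, where 0.916% did. The rule that chose the set knew the first call, so nothing is read from these counts. Without any 1 of the 6 pools PYCR1 missed the threshold between THX and Long pools, at log2 differences of 0.70 to 0.73, and between THX and Short pools it passed only without THX pool 1. Of the other 9 genes, 0 passed in either comparison by edgeR or limma-voom, 2 had an unadjusted p below 0.05 between THX and Long pools (PHGDH and PSAT1, against 9.08% of all tested genes), and 2 did between THX and Short pools (PHGDH and ATF4, against 22.6%). DESeq2 called 0 of the 9 between THX and Long pools, where it called 2.5% of all tested genes, and PHGDH and ATF4 between THX and Short pools, where it called 9.65%. Limma-voom called 0.25% and 0.977% of all tested genes. Pools did not overlap between THX and Long for 3 of the 9, 2 higher and 1 lower, where 37.2% of all tested genes were separated, 18.5% higher and 18.7% lower. For THX over Short pools 6 of the 9 were separated, all 6 higher in THX, where 52.5% of tested genes were separated, 25.7% higher and 26.7% lower. For CHAC1, among the 6, this rested on 1.479 CPM in THX pool 1 against 1.467 CPM in Short pool 1, with Poisson intervals that overlap. The median log2 difference of the 9 was 0.07 between THX and Long pools and 0.27 between THX and Short pools, where the medians of all tested genes were 0.0011 and −0.0081. These comparisons share the THX pools.

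Between Long and Short pools, which asks what day length does with the thyroid in place, 0 of the 10 genes passed, as did 0% of all tested genes. By edgeR 3 of the 10 had an unadjusted p below 0.05 (PHGDH, ATF4 and DDIT3, all higher in Long pools), where 13.8% of all tested genes did and 6.47% of all tested genes did so as higher in Long. DESeq2 and limma-voom called 0 of the 10 here, and 0.927% and 0% of all tested genes. Leaving PYCR1 aside, pools were separated for 6 of 9 genes, 5 higher in Long and 1 lower (SESN2, log2 difference −0.13, adjusted p = 0.671), where 53.5% of tested genes were, 26.7% higher and 26.8% lower. ASNS was higher by 0.17 and PSAT1 by 0.16 on the log2 scale in Long pools (adjusted p = 0.521 and 0.519). For CHAC1 and TRIB3 Long and Short pools overlapped, with differences of 0.20 and 0.10 (adjusted p = 0.774 and 0.906) that turned to −0.061 for CHAC1 without Short pool 2 and to −0.28 for TRIB3 without Long pool 1. ALDH18A1 was at −0.05 (adjusted p = 0.756).

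The highest and lowest pool of these genes are given as a description only. How often each pool was highest or lowest among all tested genes was not counted. THX pool 2, at the end of the first component, was the highest of the 6 pools for 5 of the 10 genes (PYCR1, ASNS, CHAC1, TRIB3 and ATF4), and a Short pool was the lowest for 5 (PHGDH, ASNS, CHAC1, ATF4 and DDIT3). PYCR1 was also high in THX pool 1. For ASNS, CHAC1 and ATF4 the highest 3 places went to THX pool 2, Long pool 2 and THX pool 1, in this order, although the Poisson intervals of these pools overlap for CHAC1. PSAT1 had THX pool 1 in the lowest place.

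The wider pathway lists covered amino acid metabolism and transport as well as ATF4, its regulators and related stress responses. They held 151 genes outside the set, 145 of them tested. By edgeR 1 of the 145 fell between THX and Long pools (SLC6A20), where 0.283% of all tested genes passed. Between Long and Short pools 0 passed, as did 0% of all tested genes, and 19 had an unadjusted p below 0.05, against 13.8%. Between THX and Short pools 1 rose and 2 fell (PRODH, GLUD1 and SLC6A20), where 0.916% of all tested genes passed. In this order of comparisons DESeq2 called 6, 1 and 16 of the 145, and 2.5%, 0.927% and 9.65% of all tested genes. The median log2 differences of the 145 were −0.03, 0.05 and 0.04 in these comparisons.

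None of the sensors and brakes of the eIF2alpha pathway passed. The 18 genes of the eIF2alpha kinases, its phosphatase subunits and the exchange factor eIF2B had a median log2 difference of 0.01 between THX and Long pools, and 0 of them were called in any comparison by edgeR. At an unadjusted p below 0.05 there were 2, both lower in Long than in Short pools, against 13.8% of all tested genes. In the comparisons with THX pools there were 0, against 9.08% (Long) and 22.6% (Short) of all tested genes. EIF2AK4, which encodes the amino acid sensing kinase GCN2, was at 50.6 and 47.3 CPM in THX pools, 45.9 and 48.6 CPM in Long pools and 55.3 and 53.4 CPM in Short pools (log2 difference of Long over Short −0.20, adjusted p = 0.349, and of THX over Short −0.15, adjusted p = 0.294). IMPACT, an inhibitor of GCN2, was at 10.6 and 7.35 CPM in THX pools, 6.96 and 7.51 CPM in Long pools and 9.62 and 12.4 CPM in Short pools (log2 difference of THX over Long 0.31, adjusted p = 0.797, and of Long over Short −0.60, adjusted p = 0.342). EIF2B1, a subunit of eIF2B, had a log2 difference of 0.15 between THX and Long pools (adjusted p = 0.797), and PPP1R15B, a phosphatase subunit, −0.25 between THX and Short pools (adjusted p = 0.322).

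Of 12 partner transcription factors and related regulators of ATF4, 0 passed in any comparison by edgeR. In each of the 3 comparisons 2 had an unadjusted p below 0.05. Of all tested genes, 9.08%, 13.8% and 22.6% had such a p for THX over Long, Long over Short and THX over Short. CEBPD, a C/EBP factor induced in acute-phase responses, was at 35.3 and 44.1 CPM in THX pools, 33.0 and 29.9 CPM in Long pools and 24.4 and 29.1 CPM in Short pools (log2 difference of THX over Long 0.34, adjusted p = 0.537, and of THX over Short 0.57, adjusted p = 0.0978). The second passed in 3 of 15 alternatives, among them DESeq2 (adjusted p = 0.00522) and no filter on low counts (0.03). Between THX and Short pools these settings called 1738 and 908 genes, against 165 in the fit used throughout. TRIB2, a paralog of TRIB3, was at 18.3 and 17.5 CPM in THX pools, 15.1 and 14.8 CPM in Long pools and 19.4 and 18.1 CPM in Short pools. Its log2 difference was 0.26 between THX and Long pools (adjusted p = 0.486) and −0.33 between Long and Short pools (adjusted p = 0.342), so Long pools were the lowest.

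Among further ATF4 targets, 0 of 19 passed in any comparison by edgeR, with 2, 1 and 6 at an unadjusted p below 0.05 for THX over Long, Long over Short and THX over Short, where 9.08%, 13.8% and 22.6% of all tested genes had such a p. XPOT, which exports tRNA from the nucleus, was at 197 and 183 CPM in THX pools, 244.5 and 252 CPM in Long pools and 274 and 249 CPM in Short pools. XPOT differed by −0.39 on the log2 scale between THX and Long pools (adjusted p = 0.18) and −0.46 between THX and Short pools (adjusted p = 0.0573), and by DESeq2 both passed (adjusted p = 0.00315 and 7.2e-05). The second passed in 6 of 15 alternatives, among them total counts (0.0396), no filter (0.0162), a mean of at least 5 CPM (0.0468), the pool number as a replicate block (0.0432) and the fit without THX pool 1 (0.0411). EIF4EBP1, a brake on translation initiation, was at 33.5 and 39.9 CPM in THX pools, 33.4 and 33.7 CPM in Long pools and 25.2 and 28.0 CPM in Short pools (log2 difference of THX over Short 0.46, adjusted p = 0.0942, and of Long over Short 0.33, adjusted p = 0.342). The first passed in 3 of 15 alternatives, among them DESeq2 (adjusted p = 0.00729) and no filter (0.04). VEGFA, the vascular growth factor, had a log2 difference of −0.23 between THX and Long pools (adjusted p = 0.398), and CDKN1A, a cell cycle inhibitor, 0.28 between Long and Short pools (adjusted p = 0.368). The fibroblast growth factor FGF21 and the hormone ADM2 had too few counts to be tested.

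Of 14 amino acid transporters in the list, SLC6A20 alone passed by edgeR in the comparisons with THX pools, and 0 passed between Long and Short pools. Between THX and Long pools 10 lay below 0 (median log2 difference −0.09). At an unadjusted p below 0.05 there were 1 higher and 2 lower, against 9.08% of all tested genes. Between THX and Short pools 8 lay below 0 (median −0.29), with 3 higher and 4 lower at that p, against 22.6% of all tested genes. SLC7A5, a transporter of large neutral amino acids, was 1 of the 3 and is named after its values were seen. It was at 43.3 and 57.7 CPM in THX pools, 32.4 and 34.3 CPM in Long pools and 28.6 and 36.0 CPM in Short pools (log2 difference of THX over Short 0.65, adjusted p = 0.1). Both THX pools thus lay above every Long and Short pool. The cationic amino acid transporter SLC7A1 was at 46.2 and 45.6 CPM in Long pools and 54.8 and 51.5 CPM in Short pools, and the lysosomal transporter SLC36A1 at 38.0 and 41.9 CPM in Long pools and 47.3 and 43.0 CPM in Short pools (log2 differences −0.21 and −0.18, adjusted p = 0.342 and 0.426). Of the 12 tested enzymes of asparagine, alanine, cysteine and glutathione, none passed in any comparison by edgeR. For THX over Long and for THX over Short 1 had an unadjusted p below 0.05, against 9.08% and 22.6% of all tested genes. Between Long and Short pools 0 did, against 13.8%. The 1 was GPT, an alanine aminotransferase, at 139 and 128 CPM in THX pools, 165 and 166 CPM in Long pools and 171 and 147 CPM in Short pools (log2 difference of THX over Long −0.31, adjusted p = 0.361, and of THX over Short −0.25, adjusted p = 0.182). GOT2, the mitochondrial aspartate aminotransferase, had a log2 difference of −0.13 between THX and Long pools (adjusted p = 0.667), and MPST and GSS 0.14 and 0.19 between Long and Short pools (adjusted p = 0.46 and 0.473).

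**Figure D5:**
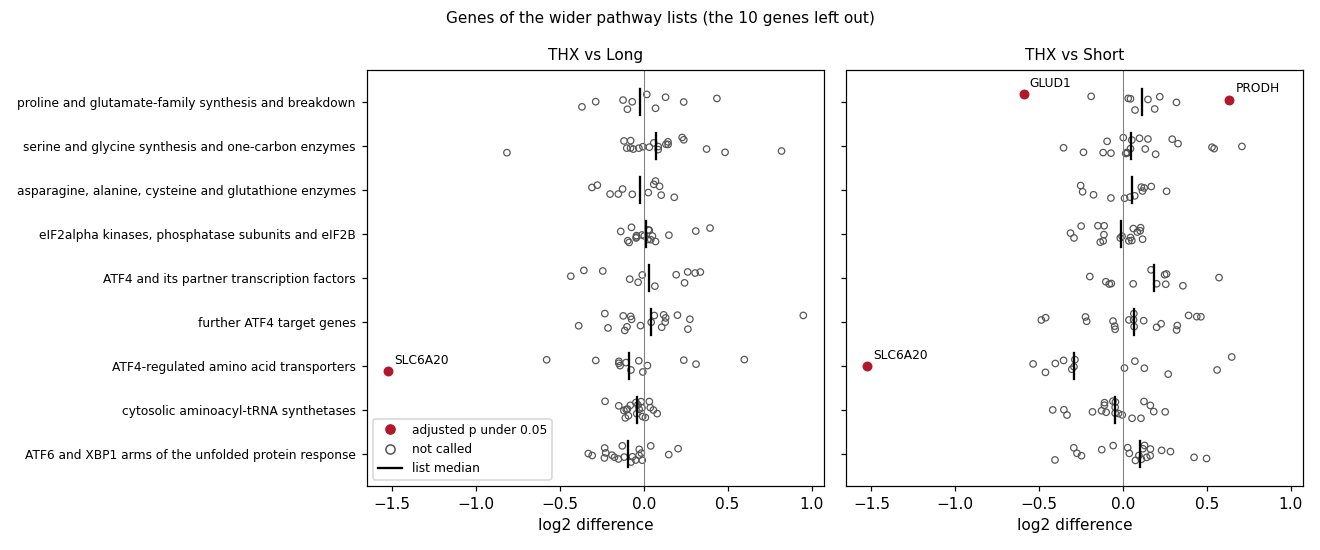
Log2 differences (x axis) of the tested genes of 9 pathway lists (rows), without the 10 genes, for THX over Long and THX over Short pools; filled points passed at an adjusted p under 0.05 and black bars are list medians. SLC6A20 lies at −1.53 in both panels, and PRODH (0.63) and GLUD1 (−0.59) are filled for THX over Short alone; that difference between comparisons was not tested.

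The profile of PYCR1 over the 6 pools was compared with that of 12066 tested genes with a symbol and a mean of at least 2 CPM. Likeness was the root-mean-square difference of log2 CPM after centring each gene on its mean, where PYCR1 itself had an SD of 0.353. The closest was DEGS2, a sphingolipid desaturase and hydroxylase, at a difference of 0.0452. It was at 85.2 and 83.6 CPM in THX pools, 56.0 and 51.5 CPM in Long pools and 53.9 and 55.5 CPM in Short pools. Next came CSAD, an enzyme of taurine synthesis (0.0663), STBD1, a glycogen-binding protein (0.067), GSTA1-1, a glutathione transferase (0.0693), and the secreted protease HTRA1 (0.0993). CSAD was at 511.5 and 511.2 CPM in THX pools, 344 and 347 CPM in Long pools and 341 and 332 CPM in Short pools, so each of its THX pools lay above the other 4. None of the other 9 genes of the set was among the 5 closest to PYCR1.

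ASNS varied less, with an SD of 0.14 over the pools on the log2 scale. Its closest profiles were PARL, a mitochondrial protease (0.0177), COPS3, a COP9 signalosome subunit (0.0281), the kinase CDK10 (0.0293), the small GTPase RAB32 (0.0307) and the sorting nexin SNX24 (0.0335). PARL was at 49.1 and 56.7 CPM in THX pools, 46.8 and 54.9 CPM in Long pools and 46.1 and 43.1 CPM in Short pools, with the higher THX and the higher Long pool both numbered 2, as for ASNS. With 6 pools and 12066 genes searched, such likeness is a description of these pools.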

How the data were processed

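Sheep choroid plexus polyA RNA was sequenced in 6 pools, with a stranded mRNA library kit per the labels' protocols. The authors deposited unnormalised whole counts per gene. Among the tools in the submitters' processing notes are TopHat2 2.1.1 for alignment and featureCounts 2.0.0 for counting. Build, annotation, strand setting and the treatment of multimapped reads: not given in the sources used here. Genes with near-identical copies or antisense partners carry that uncertainty. An annotation table (ARS-UI_Ramb_v3.0) served for names, and held 28100 of the 33609 identifiers.

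The default filter of edgeR 4.0.16 in R 4.3.3 kept 18019 genes. After TMM scaling, all 6 pools entered 1 quasi-likelihood fit with a mean for each group (3 residual and 3.96 prior degrees of freedom). Pairs of groups were tested two-sided, with Benjamini-Hochberg adjustment over all tested genes and a threshold of 0.05. SE and unadjusted 95% intervals come from that fit. Log2 CPM for comparing profiles had a prior count of 2.

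Counts of the 2 pools of a group varied 70.1 (THX), 15.8 (Long) and 28.3 (Short) times as much as counting alone would give, so no pool repeats another. Nothing in the labels pairs pools across groups. Genes, lists and tests were chosen with earlier results of these data known. Named are the 10 genes, the called genes of each list (up to 4 per comparison) or otherwise the 2 of lowest p, HR and KLF9, and the 5 profiles nearest to PYCR1 and to ASNS. Other genes singled out are marked as such. Alternatives covered DESeq2 1.42.0, limma-voom (limma 3.58.1), scaling, filters, thresholds and subsets of pools. The fit was tested on simulated data. Python 3.11.15 and matplotlib 3.10.9 drew the figures.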

Additional observations from a re-analysis of the deposited data

How the results depend on the processing

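Each group had 2 pools, and many calls rest on the spread estimated from all 6. The number of called genes was 51 between THX and Long pools, 0 between Long and Short pools and 165 between THX and Short pools. In this order it was 451, 167 and 1738 by DESeq2, and 204 and 908 for the comparisons with THX pools without a filter on low counts. It was 22 and 11 with only the 4 pools compared, and 92 and 922 at an adjusted p under 0.1. Total counts without scaling factors gave 259 between THX and Short pools (49 higher and 210 lower, against 57 higher and 108 lower). Leaving out each pool in turn gave 2 to 37, 0 to 4 and 10 to 1087, with the lone pool of a group assumed to vary like the others. For THX over Long it gave 13 without THX pool 1, 9 and 2 without Long pools 1 and 2, and 24 without either Short pool. For THX over Short it gave 1087 and 80 without THX pools 1 and 2, 16 without either Long pool, and 10 and 36 without Short pools 1 and 2. The 10 genes described included 1, 0 and 1 called genes, and 0 to 0, 0 to 0 and 0 to 3 without a pool (3 without THX pool 1, 0 without any other). For THX over Long the number was 0 with only 4 pools, and for THX over Short it was 0 with only 4 pools, 2 without a filter or at an adjusted p under 0.1, and 3 by DESeq2. The wider lists had 1, 0 and 3 called genes, which became 0 to 1, 0 to 0 and 0 to 11 without a pool (11 without THX pool 1, 2 without THX pool 2, 1 without Short pool 2, 0 otherwise) and 6, 1 and 16 by DESeq2. For THX over Short they had 5 with total counts, 14 without a filter, 0 with only 4 pools and 13 at an adjusted p under 0.1.

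A replicate block for the pool number left 0 of the 10 genes called between THX and Long pools and 2 between THX and Short pools, with 392 genes and 5 of the wider lists called in the second. Deviations of same-numbered pools correlated at 0.067 (THX and Long), 0.211 (THX and Short) and −0.0586 (Long and Short) across genes, and the labels do not say that the numbers pair pools.

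In the fits that left out 1 pool, log2 differences between THX and Long pools ran to 0.050 for ALDH18A1, 0.17 for ASNS, 0.32 for CHAC1, 0.15 for ATF4 and −0.35 for PYCR3. Between Long and Short pools they ran to 0.56 for CHAC1 and 0.41 for TRIB3, and between THX and Short pools to −0.089 for ALDH18A1, 0.36 for SESN2 and 0.39 for PYCR3. The opposite ends of these ranges had the other sign. Of 444 values of single members under alternatives, 12 turned sign, all of differences that had not passed. Between THX and Long pools these were ALDH18A1 (−0.034 with total counts, −0.023 without THX pool 1, −0.0053 without Long pool 1), ASNS (−0.035 without THX pool 2, −0.036 without Long pool 1), CHAC1 (−0.041 without Long pool 1) and ATF4 (−0.0034 without THX pool 2). The others were CHAC1 (−0.061) and TRIB3 (−0.28) between Long and Short pools, and ALDH18A1 (0.00033 and 0.0081) and SESN2 (−0.015) between THX and Short pools. PYCR3 turned to 0.073 between THX and Long pools and to −0.035 between THX and Short pools. The cause was not tested. CHAC1 and TRIB3 had no value at a mean of at least 5 CPM.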

Other observations

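Genes of protein folding and tRNA charging, which share inducers with ATF4, were measured as well. Of 20 genes of the ATF6 and XBP1 arms of the unfolded protein response, 0 passed in any comparison by edgeR. Between THX and Long pools 17 lay below 0 (median log2 difference −0.10). There 0 had an unadjusted p below 0.05, against 9.08% of all tested genes. Between Long and Short pools 15 lay above 0, with a median of 0.22 where that of all tested genes was −0.0025, and 9 of the 20 had an unadjusted p below 0.05 (6 higher, 3 lower), where 13.8% of all tested genes did and 6.47% as higher. SDF2L1, a chaperone cofactor of the endoplasmic reticulum, was at 29.9 and 27.8 CPM in Long pools and 21.6 and 20.6 CPM in Short pools (a log2 difference of 0.45, adjusted p = 0.342). ATF6, a sensor of this response, was at 80.8 and 80.1 CPM in Long pools and 105 and 91.4 CPM in Short pools (a log2 difference of −0.29, adjusted p = 0.342), and its difference between THX and Short pools was −0.41 (adjusted p = 0.0883). PDIA6, a disulphide isomerase, was at 354 and 281 CPM in THX pools, 277 and 274 CPM in Long pools and 235 and 214 CPM in Short pools (log2 difference of THX over Long 0.20, adjusted p = 0.711, and of THX over Short 0.50, adjusted p = 0.0939). Between THX and Short pools ATF6 passed in 2 and PDIA6 in 3 of 15 alternatives. Both passed by DESeq2 (adjusted p = 0.00509 and 0.00217) and without a filter (0.0372 and 0.0271). HERPUD1, which serves degradation of misfolded proteins, had a log2 difference of −0.23 between THX and Long pools (adjusted p = 0.587).

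None of the 20 cytosolic aminoacyl-tRNA synthetases, many of which ATF4 induces, passed in any comparison by edgeR. Between THX and Long pools 15 lay below 0 (median −0.04). There 0 had an unadjusted p below 0.05, against 9.08% of all tested genes. NARS1, which charges asparagine tRNA, was at 79.1 and 85.0 CPM in THX pools, 81.3 and 78.4 CPM in Long pools and 115 and 105 CPM in Short pools. Its log2 difference was −0.46 between Long and Short pools (adjusted p = 0.342, and 0.00284 by DESeq2) and −0.42 between THX and Short pools (adjusted p = 0.0702, and 0.000828 by DESeq2). The second passed in 3 of 15 alternatives, the others being total counts (adjusted p = 0.0359) and no filter (0.0266). THX and Long pools overlapped and both lay below the Short pools, the opposite of the order of ASNS. KARS1, which charges lysine tRNA, was at 357 and 362 CPM in Long pools and 301.5 and 317 CPM in Short pools (a log2 difference of 0.22, adjusted p = 0.35). EPRS1, which charges glutamate and proline tRNAs, was at 131 and 134 CPM in THX pools, 153.5 and 158 CPM in Long pools and 184 and 151 CPM in Short pools (log2 difference of THX over Long −0.23, adjusted p = 0.575, and of THX over Short −0.33, adjusted p = 0.138). FARSB, a subunit of the phenylalanine enzyme, had a log2 difference of −0.15 between THX and Long pools (adjusted p = 0.737).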
